A study of Mus musculus with 4 samples.

Results

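The genes described here encode the subunits of Polycomb repressive complex 2 (PRC2) as they were expressed in F123-ESCs, a male hybrid mouse embryonic stem cell line. They were chosen by gene symbol and not by a cut on a measured value, although earlier results of these data were known. The set comprised Ezh1, Ezh2, Eed, Suz12, Jarid2, Mtf2, Phf19, Phf1, Aebp2 and Rbbp4, which are 10 of the 24026 genes in the deposited table. The line comes from an S129 mother and a CAST father, so that reads of autosomal genes can be assigned to an S129 or a CAST allele. The cells were all untreated, and came from feeder-free plates on which they had been kept for at least a pair of passages after growth on inactivated mouse embryonic fibroblasts. RNAseq of polyA-enriched RNA gave 4 libraries, replicates 1 to 4, with no second condition. The comparison that the design allows is therefore the S129 allele against the CAST allele within each library. Since 1 line of 1 cross was measured, the strain and the parent that gave an allele cannot be told apart. The labels do not say whether the libraries came from separate cultures, so that the p-values measure only the spread between these libraries, which may be technical.

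PRC2 places methyl groups on lysine 27 of histone H3, a mark of silent developmental genes. EZH2 or its paralogue EZH1 carries the methyltransferase site and is active only when bound to EED, which reads the methylated lysine, and SUZ12, which holds the complex together, with the histone chaperone RBBP4 at the core. Further subunits define alternative forms: JARID2 and AEBP2 belong to PRC2.2, and one of the Polycomb-like proteins MTF2, PHF19 and PHF1 belongs to PRC2.1. Embryonic stem cells carry the mark over many promoters of developmental regulators, and they stay viable without PRC2 but differentiate poorly.

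The values are RPKM (reads per kilobase of gene, scaled to the read total) of each allele, made only from reads that cover a SNP between S129 and CAST and divided by the total of that allele in that library. The 4 libraries held between 34120416 reads of both alleles, in replicate 4, and 56627972, in replicate 1. All 10 genes passed the filter for the comparison of alleles, a sum of at least 1 RPKM over S129 and CAST, as did 13341 genes of the table. The 8 pluripotency markers, Pou5f1 and Nanog among them, were present at 29.5 to 7111 RPKM. The 8 feeder fibroblast markers summed to between 180.3 and 226.5 RPKM per library, of which Col1a2 made up 165.8 RPKM, while Lum was at 0.046 RPKM. Col1a2 was divided by a length of 850 bp, and had 26.3 RPKM with its longest coding transcript of 5348 bp, so this sum depends on the length used. In bulk RNA, fewer cells of a type and less RNA per cell cannot be told apart, and the part of feeder RNA in the results was not tested.

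Ezh2 and Phf19 are the members in which the alleles differed most, in opposite directions, and the sequence around their transcription starts is shown for this reason. Each is a window of 300 bases from the RefSeq table for GRCm38.p6, on the minus strand, and is that of the reference strain, so that the SNPs between S129 and CAST are not seen. The capitals mark letters found by a search of both strands for the motif of E2F factors, which act on genes of the cell cycle (TTTGGCGC, TTTCGCGC, TTTGCCGC or TTTCCCGC), and for CCAAT, the motif of NF-Y. The window of Ezh2 is chr6:47594981-47595280 and that of Phf19 is chr2:34913927-34914226.
Ezh2: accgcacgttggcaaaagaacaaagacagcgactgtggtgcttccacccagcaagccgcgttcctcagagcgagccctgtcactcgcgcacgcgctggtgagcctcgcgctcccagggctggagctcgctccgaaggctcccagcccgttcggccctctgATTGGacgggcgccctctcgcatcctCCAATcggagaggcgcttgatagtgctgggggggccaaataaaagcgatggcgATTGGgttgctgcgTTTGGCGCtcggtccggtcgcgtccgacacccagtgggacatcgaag
Phf19: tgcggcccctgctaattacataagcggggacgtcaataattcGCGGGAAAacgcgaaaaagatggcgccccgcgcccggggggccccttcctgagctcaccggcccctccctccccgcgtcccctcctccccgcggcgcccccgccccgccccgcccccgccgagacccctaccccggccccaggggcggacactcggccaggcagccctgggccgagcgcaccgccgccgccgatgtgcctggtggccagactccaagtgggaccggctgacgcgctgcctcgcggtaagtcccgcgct
The Ezh2 window held 1 match to the E2F letters and 3 to CCAAT, and the Phf19 window held 1 match to the E2F letters, read on the other strand, and no CCAAT. The E2F letters were found in 744 of all 32851 windows of the table (2.26%) and in 3 of the 14 windows of members, the third being that of Suz12. CCAAT was found in 37.4% of all windows and in 8 of the 14 windows of members, which belong to 7 genes. The motifs were chosen after the values were seen, and a match is a description of the letters only.

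The catalytic subunit Ezh2 (ENSMUSG00000029687; mm10 chromosome 6, 47530139 to 47595341, minus strand) was expressed far above its paralogue Ezh1 (ENSMUSG00000006920; chromosome 11, 101191115 to 101226463, minus strand), and both were higher on the S129 allele. The S129 allele of Ezh2 had 117, 134, 142 and 106 RPKM in replicates 1 to 4, and the CAST allele had 69.2, 77.4, 88.4 and 62.2 RPKM. Replicate 3 was highest and replicate 4 lowest on both alleles, and no CAST value reached the lowest S129 value. The means were 124.9 ± 16.5 and 74.3 ± 11.3 RPKM (SD, n = 4 libraries each). On the log2(RPKM+0.1) scale used for all comparisons of alleles, S129 was higher by 0.75 (standard error 0.034, 95% interval 0.66 to 0.84, adjusted p = 1.24e-04 from limma, by the Benjamini-Hochberg method over all genes tested, S129 higher in 4 of 4 libraries), which is a ratio of 1.68.

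Ezh1, which keeps PRC2 active in cells that no longer divide, was at a low level. Its S129 allele had 5.35, 5.56, 5.57 and 4.75 RPKM in replicates 1 to 4, and its CAST allele had 4.10, 4.56, 4.90 and 3.58 RPKM. S129 was above CAST within each library, but the groups overlapped, because S129 in replicate 4 was below CAST in replicate 3. The log2 difference was 0.31 (standard error 0.050, 95% interval 0.17 to 0.44, adjusted p = 0.0063 from limma, S129 higher in 4 of 4 libraries). As the mean of both alleles, Ezh1 had 4.80 ± 0.47 RPKM and Ezh2 had 99.6 ± 13.8 RPKM (SD, n = 4). Ezh2 was above Ezh1 in 4 of 4 libraries, and the mean log2 difference was 4.34 ± 0.073 (SD over 4 libraries). The exact sign-flip permutation test over libraries, two-sided, gave p = 0.125, below which 4 libraries cannot go (adjusted p = 0.125 over the 4 pairs of paralogues). The size of this difference depended on the length by which the reads of Ezh2 were divided, as described for the lengths, and was 2.52 ± 0.072 with the longest coding transcript of each gene.

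Among the other core subunits, Rbbp4 was slightly higher on CAST, and the differences of Eed and Suz12 did not pass the test. Eed (ENSMUSG00000030619; chromosome 7, 89954654 to 89980983, minus strand) ranged from 74.1 to 93.0 RPKM on the S129 allele and from 76.5 to 95.5 RPKM on the CAST allele, with CAST higher in each of the 4 libraries by a small margin. Before division by the total of each allele, S129 made up a mean of 50.1% of the Eed reads, so this margin depends on that division. S129 minus CAST was -0.052 on the log2 scale (standard error 0.030, 95% interval -0.13 to 0.028, adjusted p = 0.196 from limma), which did not pass the threshold of 0.05. Suz12 (ENSMUSG00000017548; chromosome 11, 79993106 to 80034123, plus strand) ranged from 12.4 to 16.4 RPKM on S129 and from 12.7 to 16.9 RPKM on CAST, a log2 difference of -0.029 (standard error 0.031, 95% interval -0.11 to 0.055, adjusted p = 0.463 from limma). The ranges of the alleles overlapped for both genes. The lower mean of the S129 allele turned to a higher one, still under the threshold, for Eed and for Suz12 when each column was scaled to the same sum over autosomal genes.

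Rbbp4 (ENSMUSG00000057236; chromosome 4, 129307100 to 129335370, minus strand) had the second highest deposited level of the members, and the highest when the reads were divided by the longest coding transcript or by all exons. Its S129 allele had 139.2, 136.8, 139.2 and 99.3 RPKM in replicates 1 to 4, and its CAST allele had 147.6, 148.9, 152.1 and 111.9 RPKM. Replicate 4 stood below the other libraries on both alleles, by 0.45 on the log2 scale for their mean, and the ranges of the alleles overlapped through it. CAST was higher within each library, and S129 minus CAST was -0.13 on the log2 scale (standard error 0.032, 95% interval -0.21 to -0.041, adjusted p = 0.0249 from limma), a ratio of 1.09. This call was lost without any 1 of the 4 replicates (adjusted p = 0.0560 to 0.0898 from limma), without the pairing of the alleles by library (adjusted p = 0.510 from limma), and with columns scaled to the same sum over autosomal genes (log2 difference -0.024, adjusted p = 0.663 from limma). It was kept with the median difference of the autosomal genes taken out of each library (-0.10, adjusted p = 0.0407 from limma). The same held with the median of chromosome 4 taken out (-0.11, adjusted p = 0.0400 from limma).

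The subunits of PRC2.2 showed no difference between the alleles that passed the threshold. Jarid2 (ENSMUSG00000038518; chromosome 13, 44729474 to 44921643, plus strand), which takes PRC2 to its targets, had the highest deposited value of the members. Its S129 allele had 268.1, 276.0, 297.2 and 244.6 RPKM in replicates 1 to 4, and its CAST allele had 264.4, 282.7, 285.8 and 245.2 RPKM. S129 was higher in 2 of 4 libraries, and the log2 difference was 0.0096 (standard error 0.032, 95% interval -0.077 to 0.096, adjusted p = 0.814 from limma). Of all genes tested, 97.9% had a larger absolute difference.

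Aebp2 (ENSMUSG00000030232; chromosome 6, 140622663 to 140678472, plus strand), a zinc finger protein that strengthens the binding of PRC2 to nucleosomes, ranged from 20.7 to 26.0 RPKM on S129 and from 21.3 to 24.4 RPKM on CAST. The log2 difference was 0.023 (standard error 0.036, 95% interval -0.072 to 0.12, adjusted p = 0.607 from limma), with S129 higher in 3 of 4 libraries. On chromosome 6, however, the genes tested had a median log2 difference of 0.19 towards S129. Relative to this median, taken out of each library, Aebp2 was lower on S129 by a log2 difference of -0.18 (adjusted p = 0.0116 from limma), whereas Ezh2, on the same chromosome, stayed higher on S129 by 0.55 (adjusted p = 4.78e-04 from limma).

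Of the 3 Polycomb-like genes of PRC2.1, Mtf2 was higher on S129, Phf19 was higher on CAST and Phf1 did not pass in either direction. Mtf2 (ENSMUSG00000029267; chromosome 5, 108065674 to 108109004, plus strand), which binds unmethylated CpG-rich DNA, showed a small difference. Its S129 allele had 86.9, 88.7, 91.8 and 74.4 RPKM in replicates 1 to 4, and its CAST allele had 79.7, 81.9, 82.8 and 66.4 RPKM. S129 was higher within each library, while the ranges overlapped through replicate 4. The log2 difference was 0.14 (standard error 0.030, 95% interval 0.059 to 0.22, adjusted p = 0.0153 from limma), a ratio of 1.10. It did not pass without replicate 1, 2 or 3 (adjusted p = 0.0538, 0.0557 and 0.0678 from limma, with a log2 difference of 0.13 to 0.15) or without the pairing by library (adjusted p = 0.298 from limma).

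Phf19 (ENSMUSG00000026873; chromosome 2, 34893757 to 34914026, minus strand), a reader of histone H3 methylated at lysine 36, was higher on CAST by about as much as Ezh2 was higher on S129. Its S129 allele had 7.36, 8.66, 8.83 and 7.74 RPKM in replicates 1 to 4, and its CAST allele had 11.9, 15.1, 14.9 and 13.3 RPKM. Every CAST value was above every S129 value. Unlike the other members, Phf19 was lowest in replicate 1 on both alleles. The means were 8.15 ± 0.71 and 13.8 ± 1.5 RPKM (SD, n = 4 libraries each), a ratio of 1.70 for CAST over S129. The log2 difference was -0.75 (standard error 0.034, 95% interval -0.85 to -0.66, adjusted p = 1.24e-04 from limma, CAST higher in 4 of 4 libraries).

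Phf1 (ENSMUSG00000024193; chromosome 17, 26933052 to 26937908, plus strand), another reader of that mark, was the lowest member, with 2.41 to 2.90 RPKM on S129 and 2.69 to 2.89 RPKM on CAST. The log2 difference of -0.069 (standard error 0.066, 95% interval -0.25 to 0.11, adjusted p = 0.409 from limma) did not pass, and it turned to 0.031 with columns scaled to the same sum over autosomal genes. Its interval was the widest of the members tested, and between 102 and 203 reads stood behind each of its values. Mtf2 was above Phf19 in 4 of 4 libraries, by a log2 difference of 2.88 ± 0.16, and Phf19 was above Phf1 in 4 of 4, by 1.95 ± 0.14 (SD over 4 libraries; p = 0.125 for each pair by the exact permutation test). On single alleles, the log2 difference between Mtf2 and Phf19 was 3.37 on S129 and 2.48 on CAST.

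**Figure D1:**
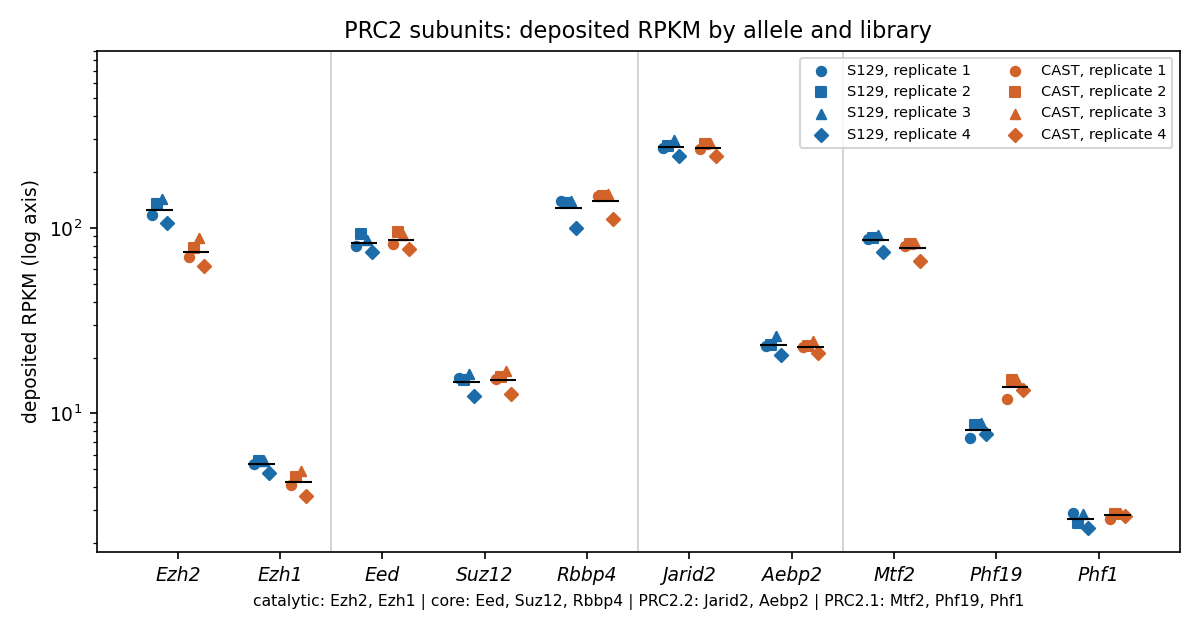
Deposited RPKM (log axis) of the 10 PRC2 genes, with blue symbols for the S129 and orange symbols for the CAST allele, 1 symbol shape for each library and a black line at the mean of an allele. S129 lies above CAST in each library for Ezh2 (means 124.9 and 74.3 RPKM) and below it for Phf19 (8.15 and 13.8 RPKM), and the diamonds of replicate 4 are mostly the lowest.

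Across the members, 3 were called higher on S129 (Ezh2, Ezh1 and Mtf2), 2 higher on CAST (Phf19 and Rbbp4) and 5 passed in neither direction. Calls were common in these libraries: 62.7% of the 13341 genes tested passed, 31.4% towards S129 and 31.3% towards CAST. Of the autosomal genes, to which all members belong, 61.4% passed, 28.9% towards S129 and 32.5% towards CAST. With columns scaled to the same sum over autosomal genes, the median log2 difference of all genes moved from -0.0034 to 0.099, and the S129 share of the calls rose from 50.0% to 62.6%. The median absolute log2 difference was 0.098 for the 10 members, 0.31 for all genes tested and 0.29 for the autosomal genes tested. Larger absolute differences than those of Ezh2 and Phf19 were found in 22.9% and 22.8% of the genes tested. Among the autosomal genes they were found in 20.1% and 20.0%. The genes were not matched to the members by level.

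**Figure D2:**
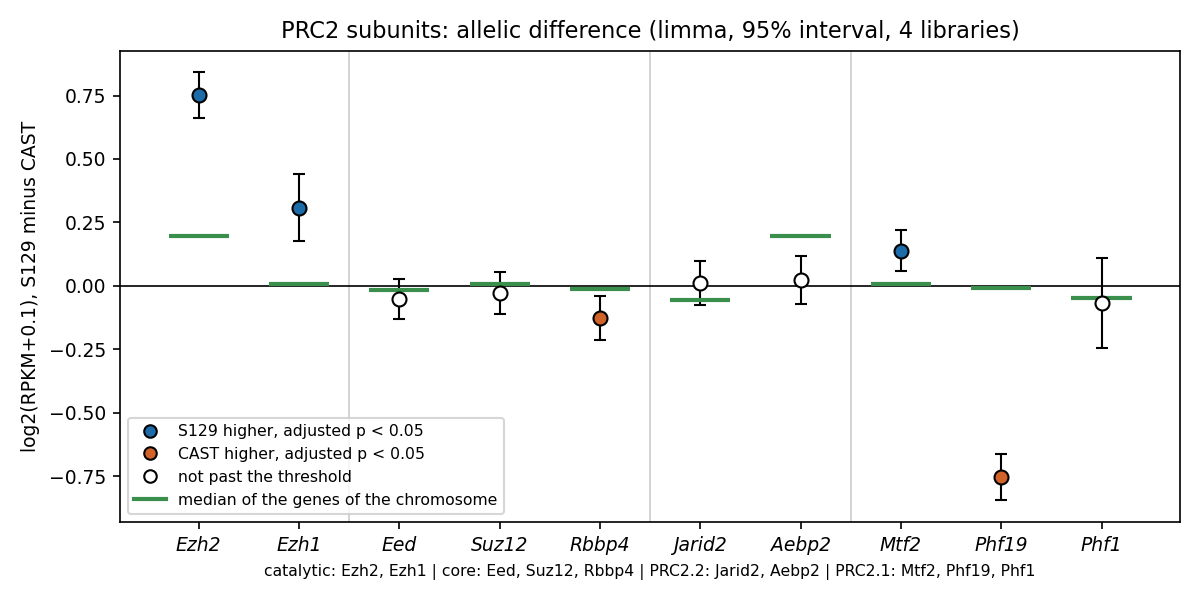
Difference between the alleles of the 10 PRC2 genes as S129 minus CAST in log2(RPKM+0.1), from limma over 4 libraries with its 95% interval; filled points passed an adjusted p of 0.05, and green lines mark the median of the genes tested on the chromosome of each member. Ezh2 (0.75) and Phf19 (-0.75) lie far from 0 and from their chromosome medians, and Aebp2 (0.023) lies under the median of chromosome 6 (0.19).

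The reads behind the values gave the share of S129 in each library, with its counting error. For Ezh2 the share was 63.6%, 64.4%, 62.6% and 64.0% in replicates 1 to 4 (mean 63.6% ± 0.76, SD, n = 4), from 816 to 2744 reads per allele and library. For Phf19 it was 38.9%, 37.4%, 38.1% and 37.7% (mean 38.0% ± 0.65, SD, n = 4), from 504 to 1393 reads. The shares of both genes varied by less than the exact 95% binomial intervals of single libraries, which in replicate 1 ran from 62.1% to 65.0% for Ezh2 and from 36.8% to 41.0% for Phf19.

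Ezh1 had a mean share of 56.4% ± 1.7 and Mtf2 one of 53.4% ± 0.42 (SD, n = 4 each). The remaining 6 members had means between 48.8% ± 0.56, for Rbbp4, and 51.4% ± 0.89, for Aebp2 (SD, n = 4 each). The intervals of the 4 libraries had a value in common for every member except Rbbp4, whose share fell between 48.0% and 49.3% on 7615 to 18120 reads per allele and library. Such intervals hold counting error alone and take each read as a separate molecule. They may be too narrow, because PCR copies of a molecule could not be recognised. A gene with the same RPKM on both alleles has a share slightly above 50% here, because the total of the S129 reads exceeded that of the CAST reads in each library. The methods name all mapped reads as the total, and genes tested on chromosome X had a median S129 share of 99.9%. Small differences towards CAST in RPKM therefore depend on this scaling.

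The shares of the 2 members on chromosome 6 were set beside their surroundings. The median share of 636 genes on this chromosome was 54.4%, against medians of 50.0% to 51.2% on the chromosomes of the other 8 members. Of the autosomes without a member, chromosome 3 had a median of 38.1%, chromosome 8 one of 46.6% and chromosome 16 one of 62.7%. The other autosomes without a member had medians of 49.7% to 51.2%, and copy number was not measured. Within 5 Mb of Ezh2, 40 genes with at least 400 reads had a median of 53.8%, and 5 of them had a higher share than Ezh2. Within 5 Mb of Aebp2, 20 genes had a median of 56.7%, and 14 of them had a higher share than Aebp2. Around Phf19, where the chromosome 2 median was 50.8%, 85 of 88 genes had a higher S129 share than Phf19.

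**Figure D3:**
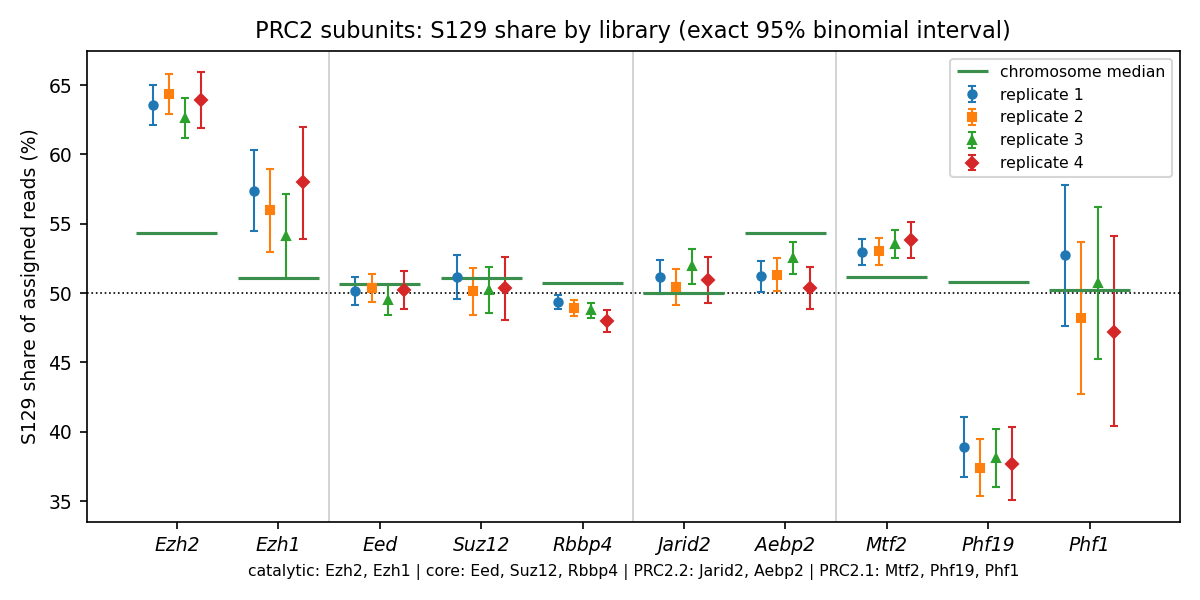
Share of S129 among the assigned reads of the 10 PRC2 genes (percent), 1 symbol for each library with its exact 95% binomial interval, a dotted line at 50% and a green line at the median of the member's chromosome. The shares of Ezh2 (62.6% to 64.4%) lie above the chromosome 6 median of 54.4% in all 4 libraries, those of Phf19 (37.4% to 38.9%) lie far under 50%, and Aebp2 lies under the median of its chromosome.

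Compared between genes, the deposited levels ran in the order Jarid2, Rbbp4, Ezh2, Eed, Mtf2, Aebp2, Suz12, Phf19, Ezh1 and Phf1, from 270.5 ± 19.9 to 2.75 ± 0.11 RPKM (SD, n = 4, mean of both alleles). Of all genes in the table, Jarid2 was at the 98.5th and Phf1 at the 60.0th percentile. Neighbours in this order differed in the same direction in 4 of 4 libraries, except for Eed over Mtf2 with 3 of 4 (log2 difference 0.055 ± 0.082, SD over 4 libraries; p = 0.375 by the exact permutation test). For the other 8 pairs of neighbours the p was 0.125, the smallest that the exact test can give with 4 libraries (adjusted p = 0.141 over the 9 pairs).

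This order rests in part on the length by which each gene was divided. The length that turned the RPKM values back into whole reads was 428 bp for Jarid2, which is that of Jarid2-214, a processed transcript and the first of the 16 that GENCODE lists for the gene, whereas its longest coding transcript has 5997 bp. For Ezh2 it was 785 bp, that of the first of 15 transcripts, beside 2787 bp, and for Mtf2 it was 2355 bp, also of a processed transcript, beside 4060 bp. For Eed, Suz12, Rbbp4, Aebp2, Phf19 and Ezh1 the length was that of the longest coding transcript. That of Phf1, found by a search as the smallest that fits, was 2429 bp beside 2526 bp.

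With the longest coding transcript in its place, Jarid2 had 19.3 ± 1.4 RPKM, Ezh2 28.1 ± 3.9 RPKM and Mtf2 47.3 ± 4.4 RPKM (SD, n = 4). The deposited values of these genes were 14.0, 3.55 and 1.72 times as high. The order was then Rbbp4 (134.4 RPKM), Eed (84.8), Mtf2, Ezh2, Aebp2 (23.1), Jarid2, Suz12 (15.0), Phf19, Ezh1 (4.80) and Phf1 (2.65), and all 9 pairs of neighbours differed in the same direction in 4 of 4 libraries (p = 0.125 for each by the exact permutation test). With all annotated exons, Jarid2 (11.9 RPKM) and Ezh2 (11.7 RPKM) were not told apart, with Jarid2 higher in 2 of 4 libraries (exact permutation test, p = 0.50). Rbbp4 and Eed led the order on both of these lengths.

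The paralogues kept their order on every length. Ezh2 was 20.3 times as high as Ezh1 as deposited, 5.73 times with the longest coding transcripts and 4.18 times with all exons. Mtf2 was 7.37, 4.28 and 4.10 times as high as Phf19, and 28.6, 17.2 and 16.7 times as high as Phf1. The ratio of Phf19 to Phf1 changed little, from 3.88 to 4.03 and 4.08. The methods speak of reads mapped to a gene and of its length, without naming the exons that either covers, and only reads over a SNP were counted, so that levels of different genes also follow how many SNPs each holds. The length cancels in the comparison of alleles.

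**Figure D4:**
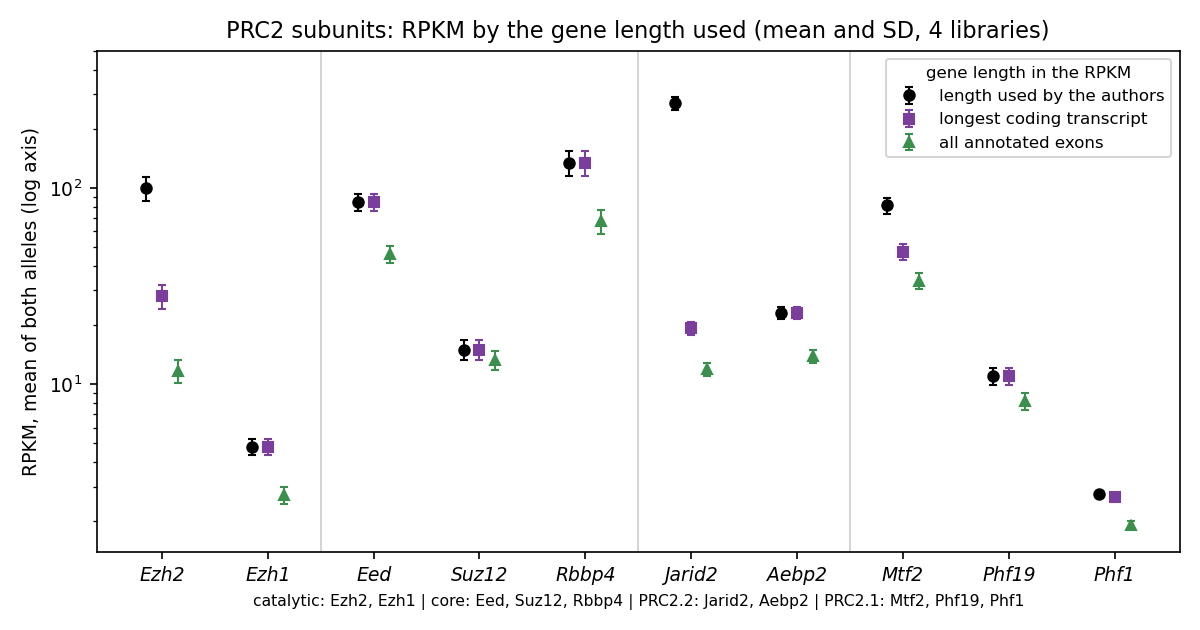
RPKM of the 10 PRC2 genes as the mean of both alleles (log axis, mean and SD over 4 libraries) with the length used by the authors (black), the longest coding transcript (purple) and all annotated exons (green). Jarid2 falls from 270.5 to 19.3 and 11.9 RPKM and Ezh2 from 99.6 to 28.1 and 11.7 RPKM, while black and purple coincide for 6 members.

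The members differed together between libraries. Replicate 4 was the lowest library for 9 of 10 members, and replicate 3 was the highest for 8, whereas over all genes tested these shares were 53.5% and 39.7%. Relative to the mean of the other libraries, replicate 4 was lower for all 10, with a median log2 difference of -0.24 for the members and -0.13 for all genes tested. Replicate 4 was also the library with the fewest reads, and the part of depth was not tested. The coefficient of variation over libraries ran from 4.17% for Phf1 to 14.3% for Rbbp4 and 13.8% for Ezh2, beside medians of 10.2%, 8.35% and 8.40% for genes of a like level.

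Of the members, 8 overlap another annotated gene, and 3 of these overlap a protein-coding gene on the opposite strand: Rbbp4 overlaps Sync, Mtf2 overlaps Tmed5, and Phf1 overlaps Cuta over 4090 bp, most of its length. The libraries were stranded, but the sources used here do not say whether strand was used in counting. Without it, reads of Phf1 and Cuta in the overlap cannot be told apart. The same holds for the other overlaps on the opposite strand. Among them were those of Ezh2 with Gm26625 (5039 bp), Phf19 with Gm13448 (1156 bp) and Suz12 with Gm26563 (12515 bp). All of these lengths are of whole gene spans, introns included.

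Other genes that act with PRC2 or on the same lysine were read from lists. Of 5 further PRC2-associated genes, Epop, which joins PRC2.1 to elongin, was the highest at 71.1 ± 3.4 RPKM (SD, n = 4) and was higher on CAST, with 46.4 ± 2.8 RPKM on S129 and 95.8 ± 4.2 RPKM on CAST (log2 difference -1.04, standard error 0.032, adjusted p = 4.08e-05 from limma, CAST higher in 4 of 4 libraries). Lcor was higher on S129 (log2 difference 0.23, adjusted p = 0.00533 from limma, or 0.0603 without the pairing by library) and its relative Lcorl did not pass (-0.13, adjusted p = 0.287 from limma). Rbbp7, the paralogue of Rbbp4, and Ezhip, an inhibitor of the complex listed in the file as AU022751, lie on chromosome X, of which this male line has the S129 copy. They had 3.11 ± 0.57 and 15.1 ± 1.5 RPKM on S129 (SD, n = 4) and were listed at 0 on CAST in every library.

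Among 5 enzymes that remove methyl groups from lysine 27 or acetylate it, the acetyltransferase gene Crebbp was higher on S129 (log2 difference 0.91, adjusted p = 6.83e-04 from limma), on chromosome 16, where the median of the genes tested was 0.69. Relative to that median it was 0.23 (adjusted p = 0.0520 from limma), which did not pass. The demethylase Kdm6b (-0.44, adjusted p = 0.00400 from limma) and the acetyltransferase Ep300 (-0.26, adjusted p = 0.00971 from limma) were higher on CAST, though Ep300 did not pass without the pairing by library (adjusted p = 0.0986 from limma) or with columns scaled to the same sum over autosomal genes (-0.16, adjusted p = 0.0682). The X-linked demethylase gene Kdm6a had 6.11 ± 0.45 RPKM, nearly all of it from S129. Its Y-linked relative Uty was listed at 0, in a table that holds only reads over a SNP, so that its expression cannot be read from this value.

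All 25 listed genes of PRC1, the complex that ubiquitinates histone H2A and in part binds the mark of PRC2, were found. Of the 21 autosomal ones tested, 9 were higher on S129, 4 higher on CAST and 8 passed in neither direction, with a median log2 difference of 0.097. With a variance trend these counts were 10, 7 and 4, and without the pairing by library 7, 3 and 11. With the pairing and no trend, 61.4% of all autosomal genes tested passed, 28.9% towards S129 and 32.5% towards CAST. Cbx7, which reads the methylated lysine, was the highest at 69.9 RPKM and its alleles did not pass (-0.11, adjusted p = 0.0636 from limma), but did without replicate 4 (-0.15, adjusted p = 0.0304) and with a variance trend (-0.11, adjusted p = 0.0185). The ubiquitin ligase gene Rnf2, at 61.8 RPKM, was higher on S129 (0.51, adjusted p = 0.00185 from limma). Among the autosomal ones, the largest differences were those of Rybp towards S129 (1.18, adjusted p = 3.60e-04 from limma), on chromosome 6, and Scmh1 towards CAST (-0.62, adjusted p = 0.00402 from limma).

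Developmental genes known as Polycomb targets were mostly at low levels. Of 23 listed, 5 had at least 1 RPKM and 8 were under 0.1 RPKM, of which 2 were listed at 0. A gene listed at 0 had no counted read over a SNP. The median of the 23 was 0.189 RPKM. Those with at least 1 RPKM were Cdkn2a, a cell cycle inhibitor, at 70.4 RPKM, the mesoderm gene T at 8.89 RPKM, Eomes at 2.92 RPKM, Hand1 at 1.22 RPKM and Gata4 at 1.03 RPKM. T (log2 difference -1.10, adjusted p = 4.01e-04 from limma) and Cdkn2a (-0.35, adjusted p = 0.00566 from limma) were higher on CAST, and Hand1 was higher on S129 (0.62, adjusted p = 0.0169 from limma). The call of Hand1 was lost without replicate 2 or 3 (adjusted p = 0.0612 and 0.0665 from limma).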

How the data were processed

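RNAseq of 4 libraries of untreated F123-ESCs was examined, grouped by the labels. The authors removed ribosomal RNA reads with SortMeRNA, trimmed with Trimmomatic (version 0.40), mapped with STAR to the N-masked mm10 genome and sorted reads by SNPsplit. The deposited values are RPKM per gene, allele and library, with the authors' average over libraries and the log10 of that average plus 1, which the authors deposited too and which were not used. No column belonged to another sample. The program that counted reads and the gene annotation are not given in the sources used here.

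Totals, gene lengths and reads were recovered from the steps of the RPKM values with transcript lengths of GENCODE M21 (mm10); 20134 of the 20243 genes above 0 came out whole (99.5%, within 0.02 reads or 2e-07 of the value). Totals ran from 16716721 to 28772351 reads per allele and library. Alleles were compared with limma (version 3.58.1, R 4.3.3) on the within-library difference of log2(RPKM+0.1) over the 13341 genes with a sum of at least 1 RPKM, with Benjamini-Hochberg adjustment and a threshold of 0.05. This scale understates differences of low genes. The pairing comes from both alleles being reads of 1 library; deviations from allele means correlated by 0.11 to 0.19 within a library and by -0.15 to 0.14 between libraries. Levels and paralogues were compared by the two-sided exact sign-flip permutation test. The recovery and limma were tested on simulated data.

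The members and lists were chosen with earlier results of these data known. Named genes are the 10 members and, per list, the 2 highest and the 2 with the largest autosomal difference that passed; Lcorl, Rbbp7, Ezhip, Uty, Eomes, Gata4 and the overlapping genes are named with their values already seen, as are single markers of the cell type lists (Pou5f1, Nanog, Col1a2, Lum and those of primitive endoderm and two-cell-like cells). Alternatives were other pseudocounts, filters, scalings, lengths, no pairing and each replicate left out; the longest coding transcript, whole reads and the autosomal median were added after seeing the data.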

Additional observations from a re-analysis of the deposited data

Results flagged for a closer look

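Rbbp4 in replicate 4 stood apart from the other 3 libraries, with a gap to the nearest of them that exceeded Dixon's 95% critical value for 4 samples. It had 99.3 RPKM on the S129 allele, where the others had 136.8 to 139.2 RPKM, 112 RPKM (111.9) on the CAST allele, where the others had 147.6 to 152.1 RPKM, and 105.6 RPKM as the mean of both. These were 3 of the 40 sets of values examined over the 10 members; chance alone passes about 1 in 20, and the 3 share 1 gene and 1 library. The S129 share of Rbbp4 in this library was 48.0%, the lowest of the 4, from 7615 S129 reads and 8246 CAST reads.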

How the results depend on the processing

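Ezh2, Ezh1 and Phf19 kept their direction and their call under every alternative computed. With columns scaled to the same sum over autosomal genes, the log2 differences of Eed, Suz12 and Phf1 turned to 0.051, 0.074 and 0.031. That of Aebp2 turned to -0.18 with chromosome medians taken out, and that of Jarid2 to -0.0059 without replicate 3 (up to 0.024 without another). Rbbp4 lost its call without the filter on low values (-0.13, adjusted p = 0.0671 from limma), without the replicate block, that is the pairing by library (-0.13, adjusted p = 0.510), with columns scaled to the same sum (-0.024) and with a replicate left out (-0.14 to -0.11). Mtf2 lost its call without the replicate block (0.14, adjusted p = 0.298 from limma) and was 0.13 to 0.15 with a replicate left out. The count of members higher on CAST was then 1 in place of 2 without the filter, without the block, with the same sum and with any replicate left out (1 to 1). With chromosome medians taken out this count was 3, because Aebp2 then passed (adjusted p = 0.0116 from limma). The count of members higher on S129 was 2 in place of 3 without the block and without replicate 1, 2 or 3. Leaving out the block changed no other call of a member.

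On a single allele, S129 or CAST, Ezh2 had 124.9 or 74.3 RPKM, Ezh1 5.31 or 4.29, and Phf19 8.15 or 13.8. With all exons, levels were 11.7 (Ezh2), 2.71 (Ezh1), 45.8 (Eed), 13.3 (Suz12), 67.7 (Rbbp4), 11.9 (Jarid2), 13.9 (Aebp2), 33.7 (Mtf2), 8.16 (Phf19) and 1.92 (Phf1). With the longest coding transcript they were 28.1 (Ezh2), 19.3 (Jarid2) and 47.3 (Mtf2). The log2 difference of Ezh2 over Ezh1 was 4.11 with a pseudocount of 1, 4.52 on S129, 4.08 on CAST, 2.06 with all exons and 2.52 with the longest coding transcript. That of Mtf2 over Phf19 was 3.37 on S129, 2.48 on CAST, 2.03 and 2.10 with these lengths. That of Mtf2 over Phf1 was 4.46, 4.94, 4.73, 4.06 and 4.11 in the order given for Ezh2. That of Phf19 over Phf1 was 1.67 with a pseudocount of 1, 1.56 on S129 and 2.25 on CAST. The causes were not tested, beyond the lengths themselves. A count test on the recovered reads was not run; limma on whole reads changed no call of a member. Depth limits Phf1 most, with 102 to 203 reads per allele and library.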

Other observations

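Of the members, Jarid2, Ezh2 and Mtf2 were not the only genes whose deposited level rested on a short transcript. The set examined was protein-coding genes with at least 1 RPKM as deposited whose length was that of the first listed transcript. In this set, 576 genes were divided by a length under 20% of their longest coding transcript. Their median was 36.8 RPKM as deposited and 4.12 RPKM with the longest coding transcript. It was 8.91 RPKM for the 5850 genes of the set whose length was that of the longest coding transcript. A short length raises the deposited level on which the set was filtered, so these medians depend in part on the filter. Of the members, Jarid2 was under this 20%, while Ezh2 and Mtf2 were not. Other genes named here also had a length shorter than their longest coding transcript, whether or not under 20% of it. Among them were Rnf2 (61.8 RPKM as deposited, 15.8 RPKM with the longest coding transcript), Ep300 (7.26 and 2.28 RPKM) and the feeder marker Col1a2 (165.8 and 26.3 RPKM).

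The 7 primitive endoderm markers summed to between 55.9 and 64.9 RPKM per library. Dab2 made up 44.2 RPKM of this on a length of 642 bp (6.09 RPKM with the longest coding transcript). Lama1 made up 11.2 RPKM (11.2 RPKM with the longest coding transcript) and Pdgfra 3.31 RPKM (1.39 RPKM with the longest coding transcript). Gata4 had 1.03 RPKM, Sox17 0.326 RPKM, Sox7 0.273 RPKM and Foxa2 0.189 RPKM. The 5 markers of two-cell-like cells summed to between 4.59 and 5.26 RPKM, mostly from Zscan4d (2.52 RPKM) and Gm8300 (1.79 RPKM). Usp17lc had 0.411 RPKM, Tcstv3 had 0.242 RPKM and Zscan4c was listed at 0, in a table that holds only reads over a SNP.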
